A study of Homo sapiens with 24 samples.

Results

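The comparison described here is oxidative stress (OS) against control in RNA from heavy polysomes of MRC5 cells, an established line of human lung fibroblasts. The heavy-polysome samples, called the high pool, joined sucrose gradient fractions 15 to 23, which the methods equate with transcripts carrying at least 5 ribosomes. They were chosen by their labels, and they comprise 6 of the 24 arrays of the series, 3 from untreated cells and 3 from cells given 0.2 mM H2O2 for 2 hours. Each change in the high pool was set beside the change in whole-cell RNA (total RNA), for which there were also 3 control and 3 OS arrays, so that 12 arrays entered the fit. All cells, control cells included, were sub-confluent, carried no genetic change that the labels name, and received cycloheximide, which holds ribosomes in place, shortly before harvest. From each sample 100 ng of RNA was primed with oligo-dT and labelled with Cy3. A change in signal is therefore a change in a transcript's share of the RNA of its pool, and a loss of polysomes as a whole cannot be told apart from an unchanged amount. The methods speak of 3 rounds with independent RNA preparations, but neither they nor the labels tie an array to a culture, so part of the spread that the p-values measure may be technical.

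Polysomes are mRNAs with several ribosomes on them, and the number of ribosomes on a transcript rises with the rate at which translation starts and with the length of the coding sequence. Acute stress commonly slows the start of translation through phosphorylation of eIF2α, while some transcripts with short reading frames in their leaders, ATF4 among them, are then translated better. Transcripts of ribosomal proteins and elongation factors form another class. They begin with a cytosine followed by a run of pyrimidines, the 5′ terminal oligopyrimidine (TOP) motif, through which mTOR signalling and LARP1 control their movement on and off polysomes. H2O2 also induces immediate early genes, which encode short-lived transcription factors and are transcribed within minutes.

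The gene lists described below were drawn up by symbol. Among them, the ribosomal proteins and elongation factors are the ones known for a feature of the transcript's own sequence. For that reason the first 20 bases of their transcripts are shown for members on which the results turn, followed by those of 4 matrix genes that moved the other way. The sequences are from RefSeq (GRCh38.p14), written 5′ to 3′ on the transcribed strand, and capitals mark a run of pyrimidines that starts with C at the first base.
RPL13A, chr19:49487608-49487627 (+): CTTTTCCaagcggctgccga
RPSA, chr3:39406720-39406739 (+): CTTTTCCgtgctacctgcag
RPS23, chr5:82278335-82278354 (-): CTCTTTCgctcaggcccgtg
EEF1A1, chr6:73521013-73521032 (-): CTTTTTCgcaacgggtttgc
RPL3, chr22:39319604-39319623 (-): CTCTaccggcgggatttgat
EIF4B, chr12:53006456-53006475 (+): CTTTTgcgttctctttccct
NAP1L1, chr12:76084666-76084685 (-): CTTTTTTagcgccatctgct
COL6A3, chr2:237414145-237414164 (-): agtcttccaccaaaggccgt
TNC, chr9:115118138-115118157 (-): ggccacagcctgcctactgt
COL12A1, chr6:75206034-75206053 (-): CCacttggctaaggcgaacc
COL5A1, chr9:134641803-134641822 (+): gtccgcactctccgtccccg
COL5A1, chr9:134641805-134641824 (+): CCgcactctccgtccccgcg
RPL13A, RPSA, RPS23, EEF1A1, EIF4B and NAP1L1 open with C and at least 4 further pyrimidines, and RPL3 with C and 3. Among the matrix genes, COL12A1 and 1 of the 2 starts of COL5A1 open with C and 1 further pyrimidine, and the other starts do not open with C.

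Of the mRNA probes, 58.4% to 62.3% were well above background on the high pool arrays, and of the lncRNA probes 20.9% to 26.4%. Arrays of one group correlated with r between 0.983 and 0.994, except that replicate 1 of the control total RNA correlated with the other 2 at 0.927 and 0.94. On that array 238 of the mRNA probes tested lay more than 3 log2 units below both other replicates, against 37 on replicate 3 of the same group and 0 to 5 on each other array of the fit. Of these 238 probes, 3 were called in total RNA, 0 in the high pool and 0 in the difference. Of all mRNA probes tested, 9.29% were called higher and 9.82% lower in the high pool, and 6.24% and 12.6% in total RNA. The fit takes 1 spread per probe over the 4 groups, which here includes the low value. The few calls among these probes therefore do not show a lack of change. All 5 fibroblast markers with a probe (of 12 listed) were well above background on all 6 high pool arrays. Of 12 markers of epithelial, endothelial, blood and muscle cells with a probe, 5 were above background on all 6 (DES, KRT8, KRT18, SFTPC and 1 probe of PTPRC), and KDR, KRT5, MS4A1 and VWF were on none. The summed level of the fibroblast markers was 18.24 to 18.49 (log2) in control and 18.61 to 18.97 upon OS, and that of the other markers 13.47 to 13.62 and 13.12 to 13.52. Of the 5 fibroblast markers, 3 were called higher in the high pool and 0 in total RNA. Of the 6 other markers tested, 0 were called in the high pool, 2 were called higher in total RNA and 1 was called lower in the difference. The part of other cells in the results was not tested.

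The test covered 10266 mRNA probes and 9338 lncRNA probes that were well above background on all 3 high pool arrays of control or OS cells. A probe was called at a Benjamini-Hochberg adjusted p under 0.05 from limma. Transcripts named for the size of a change or difference were drawn from called probes whose groups did not overlap. Lack of overlap in them therefore adds no support. List members were mostly named for the lowest p among called probes, so lack of overlap adds little there as well. On heavy polysomes 954 mRNA probes were higher upon OS (9.29% of those tested) and 1008 were lower (9.82%). At least 2-fold changes were mostly gains, with 226 called probes up and 47 down, beside 253 and 149 in total RNA. A probe could enter the test through the arrays of OS or control cells alone. Of the mRNA probes tested, 117 were above background on no control high pool array and 5 on no OS high pool array. Within all the mRNA probes tested, total RNA had 641 higher (6.24%) and 1289 lower (12.6%). Quantile normalization holds the distribution of the mRNA probes fixed on every array, and the median change was -0.02 in the high pool and -0.02 in total RNA (log2), so that gains and losses are relative to the other mRNAs.

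Many of the changes on heavy polysomes were changes in total RNA as well. Of the 954 higher probes, 387 were also called higher in total RNA, 520 were not called there and 47 were called lower. Of the 1008 lower probes, 519 were also lower, 488 were not called and 1 was higher. A further 723 probes were lower in total RNA without a call in the high pool. Over all 10266 probes the changes on heavy polysomes and in total RNA, which come from different arrays, had a Pearson correlation of 0.539 and a Spearman correlation of 0.463 across probes, which are not independent replicates. A different call in the high pool and in total RNA does not show that the changes differ, so the difference itself was tested as an interaction term. By that test 250 mRNA probes gained more, or lost less, on heavy polysomes than in total RNA (2.44%), and 121 did the opposite (1.18%).

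**Figure D1:**
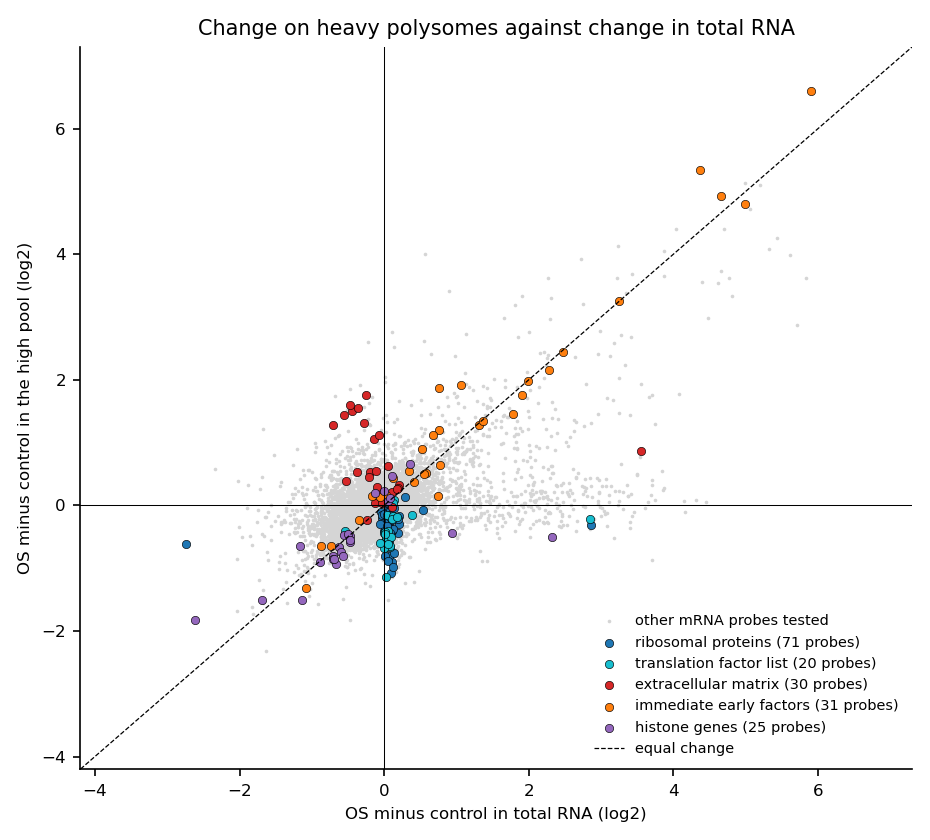
Log2 change (OS minus control) of each of the 10266 mRNA probes in the high pool (vertical axis) against its change in total RNA (horizontal axis), with 5 gene lists in colour and equal change as a dashed line. Immediate early factors lie along the line at up to 6.60, most ribosomal proteins lie below 0 at little change in total RNA, and a group of matrix probes lies above the line. The grey points far to the right at no change in the high pool include the probes that were dim on 1 control total RNA array.

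Immediate early factors had the largest gains on heavy polysomes. Of 31 probes for 27 genes of the list, 23 rose, 3 fell and 5 were not called, where 9.29% of all mRNA probes rose and 9.82% fell. The counts of every list below are to be read beside these 2 shares. The list's median change was 1.12 in the high pool and 0.75 in total RNA (log2), against -0.02 for all mRNA probes in both. ATF3, a stress-induced factor of the CREB family, had signals of 11.78, 11.66 and 11.78 in the 3 controls and 16.96, 17.25 and 17.04 upon OS. The groups were far apart, and the gain was 5.34 ± 0.14 (log2 ± SE, n = 3 per group) or 40.6-fold, with an adjusted p of 1.44e-08 from limma. Total RNA gained 4.37, so this probe rose by 0.98 more on heavy polysomes (adjusted p 0.0232). The difference was not called at 2 further ATF3 probes, which rose by 4.79 and 4.92 with differences of -0.20 and 0.26 (adjusted p 0.841 and 0.683). At the first probe the call of the difference was lost under 8 of 23 alternative settings. The remaining ATF3 probe was at 0.14 in the high pool (adjusted p 0.79).

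ARC, an effector of synaptic plasticity that is also an immediate early gene, was at 5.62, 5.53 and 5.00 in control, where 2 of 3 arrays were above background, and at 12.27, 11.39 and 12.29 upon OS. The Krüppel-like factor KLF4 went from 8.01, 8.02 and 7.86 to 10.42, 10.65 and 10.16. The orphan nuclear receptor NR4A3 went from 9.21, 9.16 and 9.24 to 11.37, 11.48 and 11.21. In each of the 3 genes every OS array lay above every control array, and the gains of 6.60, 2.45 and 2.15 in the high pool stood beside 5.91, 2.47 and 2.28 in total RNA. EGR1 rose by 1.87 and ZFP36, whose product destabilizes AU-rich mRNAs, by 1.92. Their changes in total RNA were 0.75 (adjusted p 0.0966) and 1.06, and the difference was not called for either (adjusted p 0.192 and 0.135). The list members that fell were CYR61, ID1 and ID3. CYR61, which encodes a secreted matricellular protein, was at 17.18, 16.97 and 16.86 in control and at 16.12, 15.12 and 15.82 upon OS, a change of -1.32 beside -1.09 in total RNA. ID1 and ID3, inhibitors of basic helix-loop-helix factors, changed by -0.65 and -0.64.

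Beyond the list, large gains among mRNAs bright on all 6 arrays were those of KIAA1683 (current symbol IQCN, an IQ motif protein) at 4.08, C11orf96 at 4.06, RGS16 at 3.38, FAM58BP at 3.30, VAMP8 at 3.21, MYLIP at 2.45, GADD45G at 2.35 and LOC100144604 (LINC00930) at 2.11. RGS16 accelerates GTP hydrolysis by G proteins, VAMP8 is a SNARE of endosomes and autophagosomes, and GADD45G is a growth arrest and DNA damage protein. All of these rose in total RNA too, by 1.11 to 5.32. FAM58BP, a cyclin pseudogene whose reads its parent gene can share, rose by 0.99 more on heavy polysomes than in total RNA (adjusted p 0.0108), and KIAA1683 by 1.24 less (adjusted p 0.0278), the latter without a call under 12 of 23 settings.

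Some transcripts were well above background on all 3 OS high pool arrays and on 0 of the 3 controls, so their gains are lower bounds, set by the lowest signal of any probe well above background or by the probe's own. RNU4ATAC, the small nuclear RNA of the minor spliceosome, rose at least 12.6-fold, HSH2D, an adaptor of lymphocyte signalling, at least 9.28-fold, C10orf99 (GPR15LG) at least 8.12-fold, the small GTPase REM2 at least 7.53-fold and the adaptor SH2D3C at least 6.52-fold. SH2D3C was at 2.83, 2.82 and 3.09 in control and at 8.09, 8.24 and 7.74 upon OS. LOC644656, an RNA antisense to ZNF143 that the study followed, rose at least 3.60-fold. It was at 3.60, 3.03 and 4.02 in control and at 7.20, 7.02 and 7.28 upon OS, with no overlap. The bounds in the other direction were small, 1.90-fold for EMID2 (COL26A1), 1.47-fold for ANO2 and 1.45-fold for CACNG4, and their calls were lost under 6, 13 and 12 of 23 settings. The difference from total RNA was called for none of the transcripts with a bound named here. Their changes are therefore not shown to be particular to heavy polysomes.

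Stress pathways with known transcription factors rose in part. Of 22 probes of the integrated stress response list 7 were higher and 1 was lower, beside 9.29% and 9.82% of all mRNA probes. The list's medians were 0.21 in the high pool and 0.20 in total RNA. ATF4, the factor at the centre of that response, was at 15.74, 15.65 and 15.70 in control and at 17.25, 16.94 and 17.29 upon OS. The gain of 1.46 ± 0.10 (adjusted p 9.33e-06) exceeded that of 0.63 in total RNA by 0.83 ± 0.15 (SE; adjusted p 0.0147), and the 3 OS values lay above the 3 controls. Under scaling on the 75th percentile the difference was 0.55 (adjusted p 0.351), without normalization 0.57 (0.283) and under spike-in scaling 0.71 (0.0921). HERPUD1, a component of degradation at the endoplasmic reticulum, rose by 0.83, TRIB3, a pseudokinase, by 0.55 and SLC3A2, the heavy chain of amino acid transporters, by 0.72, with no call for the difference in any of the 3. The amino acid transporter SLC7A1 fell by 0.49.

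Of 20 p53 target probes 9 rose and 0 fell, beside 9.29% and 9.82% of all mRNA probes. The list's medians were 0.35 in the high pool and 0.39 in total RNA. The antiproliferative BTG2 went from 10.69, 10.81 and 10.74 to 12.07, 12 and 12.03. The phosphatase PPM1D went from 10.96, 10.77 and 10.82 to 11.73, 11.56 and 11.61. Both separated the groups, and their gains of 1.28 and 0.78 were matched by 1.32 and 0.82 in total RNA. The Cdk inhibitor CDKN1A rose by 0.52 and the ubiquitin ligase MDM2 by 0.54. Among MAP kinase phosphatases and feedback inhibitors 4 of 7 probes rose and 0 fell, with SPRY2 at 1.58, DUSP8 at 0.81 and DUSP5 at 0.72. In total RNA 4 rose too, and the list's medians were 0.55 in the high pool and 0.82 in total RNA. Among cytokines and growth factors 8 of 19 rose and 0 fell, 3 of them probes of the neurotrophic factor GDNF at 1.16 to 1.36. In total RNA 6 rose and 1 fell, and the list's medians were 0.32 in the high pool and 0.15 in total RNA. On heavy polysomes VEGFA rose by 0.82 and HGF by 0.49. CXCL2, not well above background on any control array, rose at least 1.77-fold.

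Of 20 antioxidant probes 6 rose and 1 fell. SESN2, a stress-inducible inhibitor of mTORC1 that stands on 3 of the lists, was at 10.11, 10.12 and 10.29 in control and at 11.63, 11.71 and 11.41 upon OS, a gain of 1.41 beside 1.70 in total RNA. OSGIN1 rose by 0.86. The enzymes GPX1 (0.47 and 0.28 at its 2 called probes), SOD1 (0.57) and PRDX5 (0.34) rose on heavy polysomes with 0.06 to 0.15 in total RNA, and the difference was called for none of these 4 probes. The malic enzyme ME1 fell by 0.38. Heat shock proteins had 5 of 28 probes higher and 0 lower, beside the 9.29% and 9.82% of all mRNA probes, with the mitochondrial HSPA9 at 0.75. In total RNA 6 were higher and 0 lower, at a median of 0.19 beside 0.09 in the high pool. On heavy polysomes all 6 metallothionein probes were above 0, at a median of 0.24, and 0 were called.

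Histone transcripts had the lowest median of the lists on heavy polysomes, -0.58, beside -0.55 in total RNA. Of 25 probes 14 were lower and 2 were higher, and 0 differed between the pool and total RNA. HIST1H1D, which encodes linker histone H1.3, was at 12.29, 12.19 and 12.12 in control and at 10.47, 10.28 and 10.36 upon OS. HIST2H3A was at 14.55, 14.20 and 14.19 in control and at 12.83, 12.94 and 12.62 upon OS. HIST1H2AL was at 9.61, 9.17 and 9.20 in control and at 7.74, 7.96 and 7.74 upon OS. For all 3 the groups did not overlap, and the changes were -1.83, -1.51 and -1.51 in the high pool and -2.61, -1.14 and -1.69 in total RNA. The members that rose were HIST1H2AC at 0.66 and HIST1H3A at 0.47. Histone genes are near-identical copies, so the signal of a probe may belong to several of them, and most histone mRNAs lack the poly(A) tail that the labelling primed on. With replicate 2 of the control high pool or replicate 3 of the OS high pool left out, 9 probes were lower in place of 14.

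Genes with a ZNF symbol, most of which encode zinc finger proteins of the C2H2 family of transcription factors, also lost signal in number. The list was taken by symbol and includes the antisense RNA ZNF295-AS1, which rose, and the pseudogenes ZNF767P, which fell, and ZNF815P, which rose. Of 329 probes for 281 genes 93 were lower and 24 were higher, beside 9.82% and 9.29% of all mRNA probes. The median was -0.18 in the high pool and -0.29 in total RNA, and 82 of the 93 were lower in total RNA too. ZNF93, a repressor of LINE-1 elements, was at 8.60, 8.55 and 8.57 in control and at 6.95, 7.06 and 7.04 upon OS, with no overlap. It fell by 1.56 on heavy polysomes and by 1.35 in total RNA. ZNF107 changed by -1.74, ZNF792 by -1.68 and ZNF595 by -1.56, with -1.67 to -2.03 in total RNA. ZNF267 stood apart, going from 9.68, 9.70 and 9.69 to 8.60, 8.38 and 8.22 on heavy polysomes. It changed by -1.29 there and by -0.20 in total RNA, and the difference of -1.09 was called (adjusted p 0.0124). ZNF789 went the other way, from 7.86, 8.0 and 8.26 to 9.76, 9.71 and 9.83. It rose by 1.73 against -0.17 in total RNA (difference 1.90, adjusted p 0.000272). With all 24 arrays in the fit, which adds an array that stands apart, 18 ZNF probes were lower, and 56 were lower with that array left out.

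Other transcripts with large losses were FUT4, a fucosyltransferase (-1.35), EDN1, the vasoconstrictor endothelin-1 (-1.33), and SNAR-A3, a small RNA of a multicopy family whose copies the probe may not separate (-1.31). EDN1 was at 11.01, 10.82 and 10.83 in control and at 9.92, 9.25 and 9.50 upon OS. FUT4 and EDN1 changed by -1.67 and -1.40 in total RNA, and SNAR-A3 by -0.53. The difference was not called for SNAR-A3 (-0.78, adjusted p 0.0896).

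**Figure D2:**
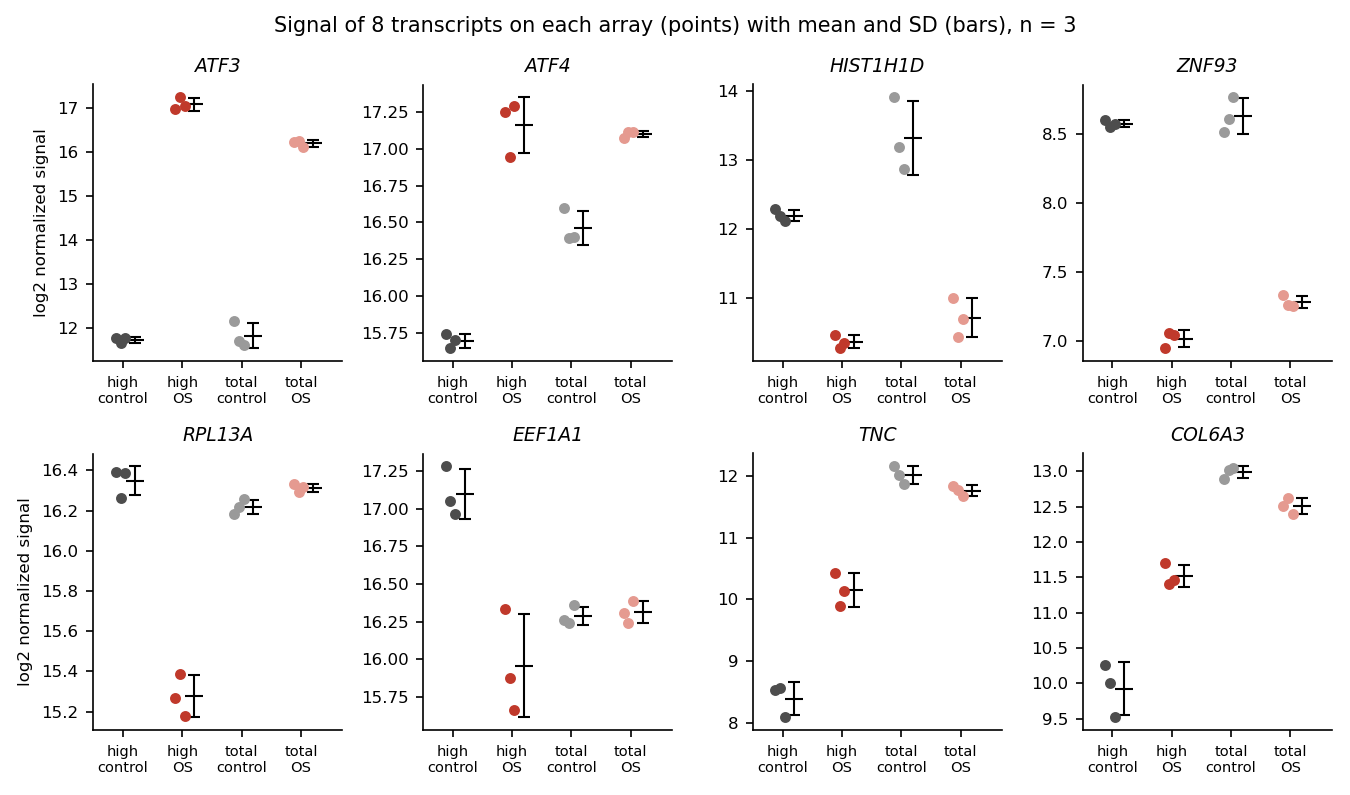
Log2 normalized signal of 8 transcripts on each array (points) with mean and SD (bars, n = 3) in the high pool and in total RNA of control and OS cells; the vertical axes differ between panels and do not start at 0. ATF3, ATF4, HIST1H1D and ZNF93 moved the same way in both, whereas RPL13A and EEF1A1 fell and TNC and COL6A3 rose in the high pool, with changes of 0.09, 0.03, -0.25 and -0.48 in total RNA.

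The transcripts of the cytosolic ribosome lost signal on heavy polysomes with little change in total RNA. Of 71 probes for 51 ribosomal protein genes, 31 were lower in the high pool, 0 were higher and 40 were not called. In total RNA 1 was higher and 0 were lower. The median change was -0.29 on heavy polysomes and 0.06 in total RNA, and 66 of the 71 probes were below 0 in the former. The 3 OS values lay below the 3 control values for 39 of the 71, against 19.3% of all mRNA probes, and above them for 0. Called changes ranged from -0.30 to -1.07 over 21 genes, and of 16 genes with several probes 15 had every probe below 0. Of the 121 mRNA probes whose difference from total RNA was called negative, 21 were ribosomal protein probes, which made up 71 of the 10266 tested.

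RPL13A, a protein of the large subunit, was at 16.39, 16.26 and 16.39 in control and at 15.27, 15.39 and 15.18 upon OS. RPSA, a protein of the small subunit and the laminin receptor, went from 17.05, 17.14 and 17.15 to 16.27, 16.14 and 16.26. RPS23, which lies at the decoding centre, went from 16.14, 16.33 and 16.29 to 15.61, 15.65 and 15.68. In all 3 the groups were clear of each other. RPL13A fell by 1.07 ± 0.08 (SE; adjusted p 1.22e-05), RPSA by 0.89 ± 0.08 and RPS23 by 0.61 ± 0.08 (adjusted p 2.92e-05 and 0.000393). Changes in total RNA were 0.09, 0.06 and 0.05, and the differences were called at -1.16, -0.95 and -0.66. RPL3, which forms part of the peptidyl transferase region, fell by 0.58 with 0.01 in total RNA. Ribosomal protein genes have many processed pseudogenes, to which part of a probe's signal may belong.

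Translation factors and other transcripts listed with the TOP class moved alike. Of 20 probes for 14 genes, 11 were lower and 0 were higher, with a median of -0.42 in the high pool and 0.06 in total RNA. EEF1A1, the elongation factor that brings aminoacyl-tRNA to the ribosome, was at 17.28, 17.05 and 16.96 in control and at 16.33, 15.87 and 15.66 upon OS. Its change was -1.14 ± 0.16 (SE; adjusted p 0.000641) beside 0.03 in total RNA, and a second probe changed by -0.51. The remaining probe was at -0.16 (adjusted p 0.242). EEF1D, the exchange factor for EEF1A1, went from 16.70, 16.72 and 16.69 to 16.09, 16.17 and 15.88. EIF4B, a cofactor of the eIF4A helicase, went from 11.86, 11.76 and 11.59 to 11.24, 11.11 and 10.79. NAP1L1, a histone chaperone, went from 14.23, 14.30 and 14.24 to 13.80, 13.79 and 13.82. No OS value reached a control value in these 3, and the changes were -0.66, -0.69 and -0.45 with 0.00 to 0.08 in total RNA. Of the 20 probes, 4 were called lower than in total RNA. Over the settings this count was 0 to 7, lowest with spike-in scaling. The difference was called for NAP1L1 but lost under 14 of 23 settings. PABPC1, the cytoplasmic poly(A)-binding protein, and GNB2L1, the ribosomal scaffold RACK1, changed by -0.59 and -0.61. Mitochondrial ribosomal proteins, which lack the motif as a class, had 2 of 42 probes higher and 3 lower at a median of 0.11.

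The fall of the ribosomal proteins was present under each of 25 settings, in which 14 to 34 of the 71 probes were lower and 0 were higher. The lowest count came from a fit of the 6 high pool arrays by themselves, and scaling on the 75th percentile gave 20. The count called lower than in total RNA was less stable, at 3 to 24. It was 7 without replicate 2 or 3 of the control total RNA or replicate 1 of the OS total RNA, and 3 or 4 under scaling on the 75th percentile or on spike-ins or without normalization.

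The start sequences shown above were extended to all genes with a RefSeq start. The motif searched was C at the first base followed by at least 4 bases that are each C or T, on the transcribed strand, and 1429 of 35116 start windows hold it (4.07%). Of 7026 mRNA probes matched to a start, 529 belonged to a gene with the motif at any of its starts. Of these, 15.3% were lower on heavy polysomes, beside 10.2% of the 6497 others. Ribosomal protein probes with the motif had a median of -0.33 and 21 of 42 were lower, and those without it had a median of -0.20 and 5 of 14 were lower. Outside the ribosomal protein and translation factor lists, 473 probes with the motif had a median of -0.03 and 11.0% were lower, beside -0.01 and 10.1% of the 6483 without. The start in RefSeq need not be the start used in these cells.

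Extracellular matrix transcripts had the reverse pattern. Of 30 probes for 26 genes 12 rose on heavy polysomes and 0 fell, while in total RNA 0 rose and 1 fell. The medians were 0.42 and -0.11, and 9 of the 30 were called higher than in total RNA. COL6A3, a chain of type VI collagen, was at 10.25, 10.00 and 9.52 in control and at 11.70, 11.40 and 11.46 upon OS. The glycoprotein tenascin C (TNC) went from 8.54, 8.56 and 8.09 to 10.43, 9.89 and 10.14. COL12A1, a collagen associated with fibril surfaces, went from 13.89, 13.49 and 12.90 to 15.08, 14.51 and 15.02. The OS arrays of all 3 lay above the controls, a condition of the choice, and in all 3 replicate 3 was the lowest control.

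The gain of COL6A3 was 1.60 ± 0.17 (SE; adjusted p 0.000122) beside -0.48 in total RNA (adjusted p 0.0742). TNC rose by 1.76 beside -0.25, COL12A1 by 1.44 beside -0.56, COL5A1 by 1.56 beside -0.36, COL4A2, a basement membrane collagen, by 1.50 beside -0.45, and fibrillin FBN2 by 1.27 beside -0.70. Of these 6, the fall in total RNA was called for FBN2 (adjusted p 0.0202). The differences were 1.92 to 2.07, all called, at adjusted p between 0.00172 and 0.0191. COL1A1 and COL3A1, the main fibrillar collagens, rose by 0.53 and 0.54, and the difference was called for COL1A1 (0.90, adjusted p 0.0274) and not for COL3A1 (0.73, adjusted p 0.107). The short transcript of the metalloproteinase inhibitor TIMP1 was at 16.13, 16.23 and 16.16 in control and at 16.86, 16.69 and 16.86 upon OS, a gain of 0.63 that exceeded total RNA by 0.57 (adjusted p 0.0182). The difference lost its call under 15 of 23 settings for COL1A1 and under 9 for TIMP1, and the gain of COL3A1 on heavy polysomes under 12 of 24.

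The matrix probes that rose most lie far from the 5′ end of long transcripts. Of the 13 matrix probes past base 4000 of their transcript, 10 rose on heavy polysomes and 8 were called higher than in total RNA, at medians of 1.27 and -0.36. Of the 17 probes up to base 4000, 2 rose and 1 was called higher than in total RNA, at medians of 0.21 and 0.05. A second COL6A3 probe, at base 3978, was at 0.54 (adjusted p 0.128). Outside the matrix list the difference from total RNA went the same way, but more probes fell than rose on heavy polysomes. Of 245 such probes past base 8000, 74 fell and 32 rose there. Their medians were -0.19 on heavy polysomes and -0.54 in total RNA. Among the 249 mRNA probes past base 8000, 51 were called higher on heavy polysomes than in total RNA (20.5%) and 0 lower, against 1.27% of the 1962 probes up to base 1000. The count of 51 was 32 without replicate 3 of the control total RNA, 70 without replicate 2 of the OS high pool, 23 without normalization, 34 with 23 arrays and 15 with 24, and 1 probe was lower without replicate 3 of the OS total RNA or of the OS high pool. Without the matrix list these were 47 of 245 (19.2%). In total RNA the median change fell from 0.09 up to base 1000 to -0.54 past base 8000, and on heavy polysomes from 0.07 to -0.17, so that the median difference rose from 0.00 to 0.28. Whether length, the position of the probe or the quality of the RNA moved these signals was not tested, since probe position and transcript length go together on the array.

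**Figure D3:**
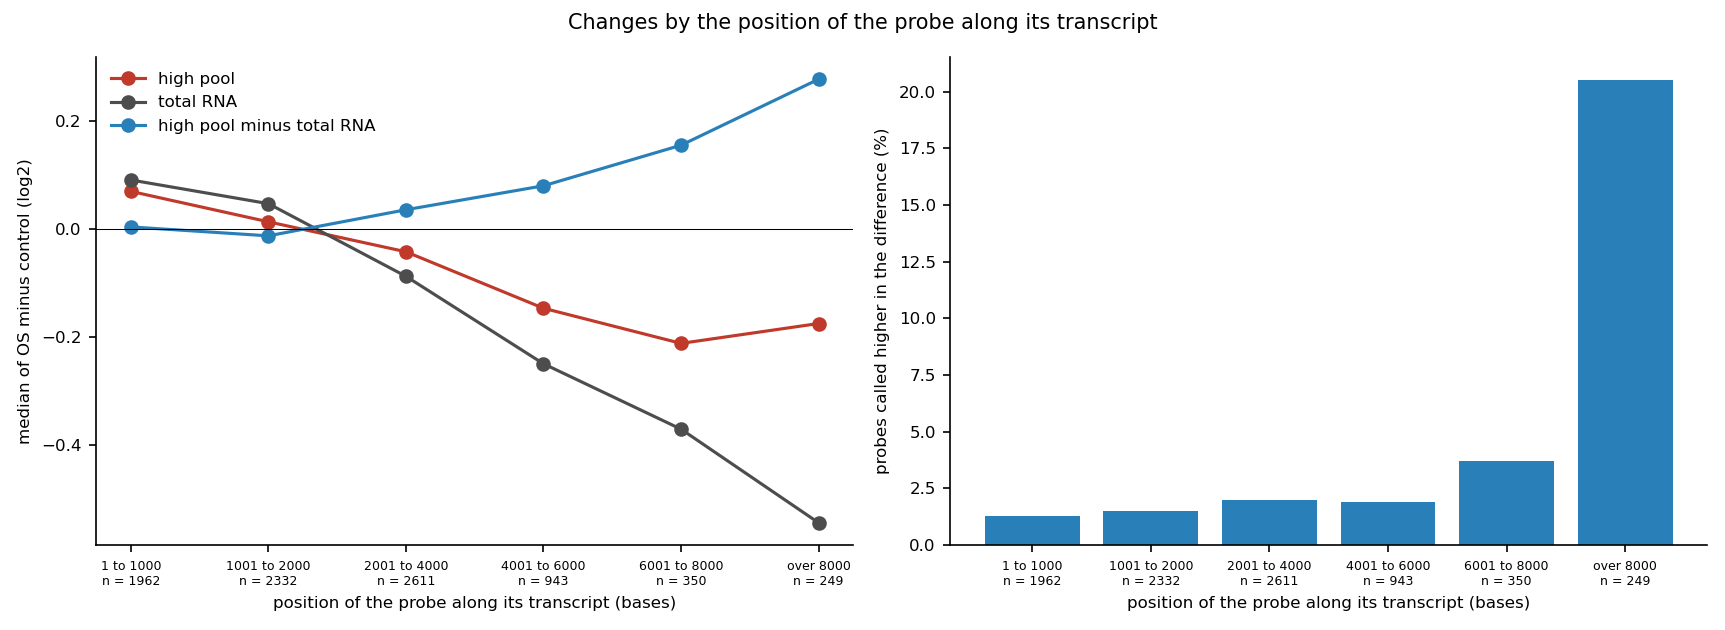
Changes of mRNA probes by position along the transcript, with the median log2 change (left) and the percent of probes called higher in the high pool than in total RNA (right) in 6 bins of bases, n giving the probes. The median in total RNA falls to -0.54 and in the high pool to -0.17 in the last bin, where 20.5% of probes are called higher in the difference.

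Other long transcripts, named after their values were seen, included the DNA repair kinase PRKDC (1.03 on heavy polysomes, -0.82 in total RNA), the dynein heavy chain DYNC1H1 (1.12 and -0.63), the cytolinker PLEC (1.18 and -0.50), fatty acid synthase FASN (1.27 and -0.19) and the actin crosslinker FLNA (0.89 and -0.37). The difference was called in all 5, but it was lost under 7 of 23 settings for FLNA. RELN, an extracellular glycoprotein, was at 7.91, 7.92 and 7.55 in control and at 9.48, 9.06 and 9.59 upon OS, a gain of 1.59 beside -0.42 in total RNA. PRPF8, the core protein of the spliceosome, rose by 0.98 beside -0.24, a difference that lost its call under 14 settings. Long transcripts did not all gain, as 74 of the 249 probes past base 8000 were lower on heavy polysomes and 36 were higher. Leaving out control high pool replicate 2 gave 46 lower and 32 higher, and the counts were 34 and 21 with spike-in scaling, 50 and 18 without normalization, 38 and 23 with the high pool arrays alone, 35 and 23 with 23 arrays and 15 and 15 with 24.

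Control spots at both ends of GAPDH gave a further reading of position. The 3′ set did not separate the high pool groups (-0.03), whereas the 5′ set was at 17.27, 17.16 and 17.15 in control and at 16.89, 16.78 and 16.44 upon OS (-0.49). With 3 arrays against 3, the smallest p of an exact permutation test is 0.1. The 5′ signal minus the 3′ signal was -1.58 to -1.49 in the control high pool, -2.12 to -1.91 in the OS high pool, -2.42 to -2.34 in control total RNA and -2.37 to -2.34 in OS total RNA. Neither PGK1 set separated the groups. Of the 71 ribosomal protein probes, 67 lie within the first 1000 bases of their transcript. Their distance from the 3′ end was not computed. The 1889 other probes within those bases had a median of 0.08 on heavy polysomes and 3.71% were lower. The part of probe position in the fall of the ribosomal proteins was not tested.

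Subunits of the mitochondrial respiratory chain gained a little on heavy polysomes. Of 46 probes for 39 genes 14 rose and 0 fell, at a median of 0.29 beside 0.11 in total RNA, where 0 were called. SDHA, the flavoprotein of complex II, was at 13.24, 13.09 and 12.99 in control and at 14.03, 13.67 and 14.08 upon OS. Its 3 called probes rose by 0.68 to 0.82, and the difference from total RNA was called for 2 of them (1.09 and 0.77). NDUFA11 and NDUFC2 of complex I rose by 0.49 and 0.48, and UQCRC1 of complex III by 0.52. These small changes depended on the arrays and the scaling. The count was 2 with the 75th percentile, without normalization or with the high pool arrays alone, 5 or 6 without replicate 1 or 2 of the control or replicate 3 of the OS high pool, 8 without OS replicate 2 and 24 without OS replicate 1.

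**Figure D4:**
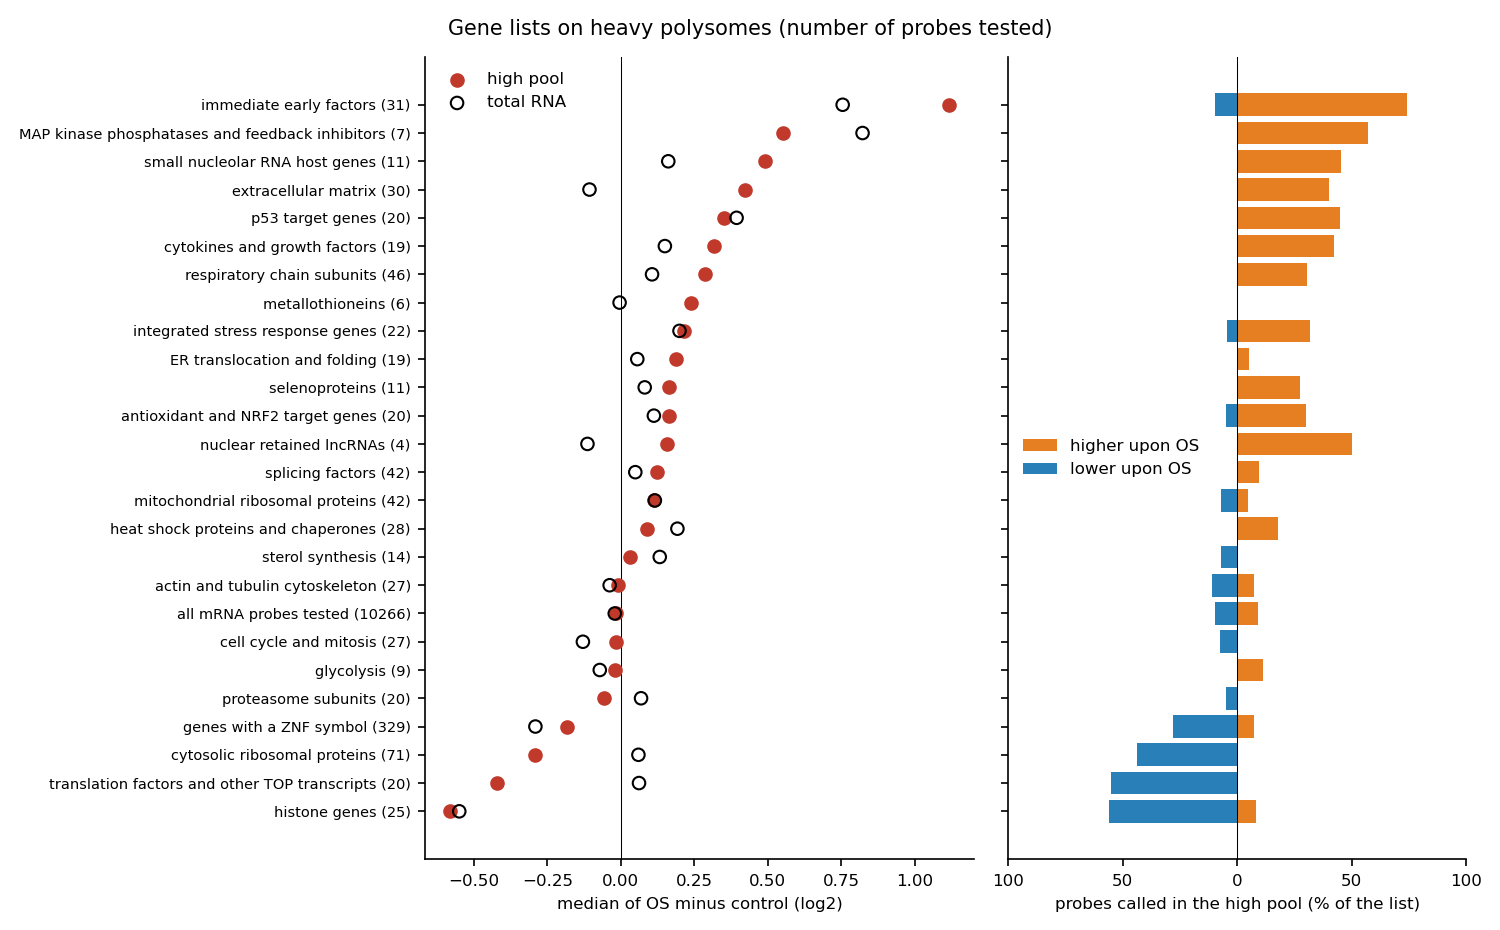
Median log2 change (OS minus control) of each gene list in the high pool (filled) and in total RNA (open) on the left, and the percent of the list's probes called higher or lower in the high pool on the right, with the number of probes tested in brackets. Immediate early factors are highest at 1.12, and the list of translation factors and other TOP transcripts (-0.42) and ribosomal proteins (-0.29) lie below 0 while their total RNA medians are 0.06.

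Of the remaining lists, most had few calls, where 9.29% of all mRNA probes rose and 9.82% fell. Splicing factors had 4 of 42 higher, near the share of all mRNA probes, and 0 lower. The kinase CLK1 led them, rising by 1.83 on heavy polysomes and by 1.22 in total RNA. Proteasome subunits had 0 of 20 higher and 1 lower, glycolysis 1 of 9 higher, sterol synthesis 1 of 14 lower, endoplasmic reticulum translocation and folding 1 of 19 higher, and cell cycle genes 0 of 27 higher and 2 lower. The actin and tubulin list had 2 of 27 higher and 3 lower. Selenoproteins had 3 of 11 higher and 0 lower, 2 of them GPX1 probes.

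Transcripts that host small nucleolar RNAs, which are known to reach ribosomes and to be turned over there, had 5 of 11 probes higher and 0 lower. SNHG3 was at 10.73, 10.32 and 10.57 in control and at 12.08, 12.37 and 11.88 upon OS. It rose by 1.57 ± 0.16 (SE) beside -0.27 in total RNA, a difference of 1.85 (adjusted p 0.00269). SNHG1, SNHG9, SNHG7 and SNHG6 rose by 0.35 to 0.78, and their differences were not called. MEG3, an imprinted and mainly nuclear lncRNA with catalog probes, was at 11.30, 11.44 and 11.53 in control and at 12.57, 12.16 and 12.31 upon OS. That gain of 0.92 stood beside -0.47 in total RNA (difference 1.40, adjusted p 0.00338). TUG1 rose by 0.30, beside -0.04 in total RNA. The list of nuclear retained lncRNAs had 4 tested probes of 2 genes. Of these probes 2 were higher on heavy polysomes, 0 were lower and 2 were not called, and 1 was below 0. The medians were 0.16 on heavy polysomes and -0.11 in total RNA, and the difference was called higher for 1 probe.

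Several transcripts rose strongly in total RNA and less, or not, on heavy polysomes. MMP25, a membrane-anchored metalloproteinase, rose by 3.75 in total RNA and by 1.29 in the high pool, from 6.17, 6.90 and 6.19 to 7.85, 7.93 and 7.35. The pattern was alike for CCDC19 (CFAP45, a ciliary protein; 2.26 and 0.92), LOC644727 (2.31 and 1.10) and NCF1, the oxidase subunit p47phox (2.03 and 0.60), whose near-identical pseudogenes the probe may not separate. JPH3 (junctophilin 3) and C20orf141 changed by -1.21 and -1.05 on heavy polysomes, with 0.41 and 0.49 in total RNA that were not called. MURC (CAVIN4) fell by 0.53 on heavy polysomes (adjusted p 0.0499) and rose by 0.77 in total RNA, and the former call was lost under 15 of 24 settings. The difference of LOC644727 was not called under 13 of 23. UBAP1L was the opposite case, with a gain of 0.64 beside -1.26.

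Among lncRNA probes 1126 were higher on heavy polysomes (12.1%) and 584 lower (6.25%), and 566 and 74 of these changed at least 2-fold. Total RNA had 868 higher (9.3%) and 918 lower (9.83%). A probe could enter the test through the high pool arrays of OS or control cells alone. When only lncRNA probes well above background on all 12 arrays were kept, 640 were higher and 553 lower on heavy polysomes. Of the 1126, 630 were higher in total RNA as well and 47 were lower there. The difference was called higher for 258 (2.76%) and lower for 73 (0.782%). Of 5495 transcripts tested, 3843 had 2 tested probes. When at least 1 of the 2 was called higher, both were in 386 of 602 transcripts, and for lower calls in 158 of 347, with 0 transcripts called in opposite directions. Of the tested probes 2288 share their sequence with another probe.

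ENST00000564152.1 gained most, from 7.44, 7.68 and 7.95 in control to 11.41, 11.26 and 11.47 upon OS. ENST00000428541.1 went from 6.86, 7.07 and 6.99 to 9.45, 9.87 and 9.56. Both separated the groups and rose by 3.69 and 2.65 beside 3.48 and 2.50 in total RNA, and their second probes rose alike (3.57 and 2.65). ENST00000584923.1 and ENST00000571722.2, whose probes share sequences with other probes, rose by 2.69 and 2.66 beside 3.34 and 3.29. ENST00000575471.1, ENST00000344686.2 and ENST00000587332.1 changed by -1.54, -1.43 and -1.42, with -0.90, -1.18 and -1.20 in total RNA. ENST00000531002.1 was at 9.78, 10.09 and 10.08 in control and at 8.87, 8.36 and 8.54 upon OS. Its loss of 1.39 on heavy polysomes stood beside 0.33 in total RNA (not called, adjusted p 0.136), and the difference of -1.72 (adjusted p 0.00168) was also called at its second probe (-1.55, adjusted p 0.0166).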

How the data were processed

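The authors deposited 1 scanner file per array (Feature Extraction 10.7.3.1, custom design on GRCh37) with the intensity of each spot after background subtraction, and a table of log2 normalized values, used as an alternative. The submitters' processing notes name Partek. Here log2 intensities of the 12 arrays were quantile-normalized, the 44002 lncRNA probes apart from the 17535 mRNA probes. The methods give this scheme for the 24 arrays, repeated after anomalous replicates were removed, and also a normexp background correction with quantile normalization, used here as an alternative. Control spots and 178 probes with an outlier mark were left out. The 4 groups were compared by a linear model in limma 3.58.1 (R 4.3.3), two-sided, with Benjamini-Hochberg adjustment over all probes tested. The number of arrays limits the precision. Current symbols and start sequences came from RefSeq (GRCh38.p14), and 8766 of the tested mRNA probes had a symbol. The position of a probe is counted along its RefSeq transcript from the array file, for 8447 coding accessions.

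Genes named were the 12 largest changes each way among called mRNA probes with separate groups, the 4 for lncRNAs, the 8 largest called differences each way, up to 5 bounds, up to 4 called members per list by lowest p and transcripts the study followed. Other names were chosen after their values were seen, and some genes that the rule named are not reported here. The members and lists were chosen with earlier results of these data known. The steps were tested on simulated data. Alternatives were other normalizations, filters and arrays, a replicate block, the mean over the probes of a gene and leaving out each array. Counts of lists under these settings were added after seeing the data.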

Additional observations from a re-analysis of the deposited data

Results flagged for a closer look

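For 36 named transcripts the change upon OS differed between the high pool and total RNA by limma's interaction term. Of these, 19 were more positive and 17 more negative on heavy polysomes. Some were named because this difference was called, with equal numbers taken each way. The count and its near balance are therefore partly set by the choice. Over all mRNA probes tested, 250 differences were called positive (2.44%) and 121 negative (1.18%). The differences (log2, high pool minus total RNA) of matrix and other long transcripts were 2.07 for COL6A3, 2.01 for TNC, 2.00 for COL12A1, 2.00 for RELN, 1.98 for FBN2, 1.95 for COL4A2, 1.92 for COL5A1, 1.26 for FLNA, 1.22 for PRPF8 and 0.90 for COL1A1. Those of shorter transcripts were 1.90 for UBAP1L, 1.90 for ZNF789, 1.85 for SNHG3, 1.40 for MEG3, 1.09 for SDHA, 0.99 for FAM58BP, 0.98 for ATF3, 0.83 for ATF4 and 0.57 for TIMP1.

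Among the negative differences, ribosomal proteins, elongation factors and NAP1L1 had -1.17 for EEF1A1, -1.16 for RPL13A, -0.95 for RPSA, -0.73 for EEF1D, -0.66 for RPS23, -0.59 for RPL3 and -0.47 for NAP1L1. The others were -2.46 for MMP25, -1.72 for ENST00000531002.1, -1.63 for JPH3, -1.53 for C20orf141, -1.43 for NCF1, -1.33 for CCDC19, -1.29 for MURC, -1.24 for KIAA1683, -1.21 for LOC644727 and -1.09 for ZNF267.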

How the results depend on the processing

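Direction held for all 122 named results under the alternatives run, with 0 reversals in 2915 values for the high pool, of which 285 lost their call. These results were chosen mainly as called changes, many with groups that did not overlap. The lack of reversals was therefore largely set by the choice. Counts moved more. Higher mRNA probes in the high pool (954) were 4.7e+02 with 75th percentile scaling, 324 without normalization, 533 with spike-in scaling, 367 with 24 arrays, 491 with the high pool arrays alone and 635 without the filter. Lower ones (1008) were 445 with spike-ins, 291 with 24 arrays, 646 with 23, 438 with the high pool arrays alone and 590 without the filter. Higher lncRNA probes (1126) were 442 with 24 arrays, 640 when bright on all 12 and 677 by transcript mean, which counts 5495 transcripts in place of 9338 probes. Lower ones (584) were 336 with the 75th percentile, 372 with normexp, 284 without normalization, 156 with spike-ins, 78 with 24 arrays, 361 with 23, 355 with the high pool arrays alone and 365 by transcript mean.

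Positive differences from total RNA in mRNAs (250) were 163 with the 75th percentile, 86 without normalization, 62 with 24 arrays and 162 with 23, and negative ones (121) were 48, 20, 18 with spike-ins and 47 with 24 arrays. For lncRNAs, positive ones (258) were 140 without normalization, 50 with 24 arrays, 390 without the filter and 162 by transcript mean. Negative ones (73) were 137 with normexp, 22 without normalization, 24 with spike-ins, 3 with 24 arrays, 44 with 23 and 358 without the filter. In total RNA, higher mRNA probes (641) were 344 with the 75th percentile, 251 without normalization, 262 with spike-ins and 221 with 24 arrays, and lower ones (1289) were 2130 with spike-ins, 203 with 24 arrays and 678 with 23. The cause was not tested.

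Leaving out single arrays gave ranges of 630 to 996 higher (lowest without OS high pool replicate 3) and 662 to 937 lower mRNA probes (lowest without control high pool replicate 2), and 853 to 1192 and 406 to 581 lncRNA probes. Positive differences ranged from 126 (without control total RNA replicate 3) to 379 (without OS high pool replicate 2) in mRNAs and from 123 to 310 in lncRNAs. Negative ones ranged from 59 (without OS total RNA replicate 1) to 173 and from 34 to 83. In total RNA lower probes ranged from 827 (without OS replicate 1) to 1442, with 845 without the deviating control replicate 1.

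The share of higher among called mRNA probes was 48.6%, and 28.7% without normalization, 54.5% with spike-ins, 55.8% with 24 arrays and 54.2% without OS high pool replicate 1. For lncRNAs it was 65.8%, and 87.1% with spike-ins, 85% with 24 arrays and 53.6% when bright on all 12. Spike-in scaling moved the median change of mRNAs in total RNA to -0.28. Same-numbered high pool arrays correlated at 0.302, -0.162 and 0.337 in their deviations, and those of different number at -0.392 to 0.133. The number is also that of the slide in the arrays of the fit, so replicate and slide cannot be told apart. The main fit did not pair the samples by number, and a replicate block gave 1011 higher and 1088 lower mRNA probes.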
